A study of Mus musculus with 24 samples.

Results

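The genes described here are those of the receptor TREM2, its signalling adaptors and the enzymes and other receptors linked to them. They were taken by symbol from the deposited count table, which held all 10 of them among 56980 genes, and all 10 were among the 14090 genes with enough counts to be tested. They are the receptor gene Trem2, the adaptor genes Tyrobp and Hcst, the kinase and lipase genes Syk and Plcg2, the phosphatase genes Inpp5d and Ptpn6, and the receptor genes Cd33, Lilrb4a and Lilrb4b. Microglia were sorted as CD11b+ CD45+ cells from the brains of 12 mice aged 19 months, 6 Grn+/+ (WT) and 6 Grn-/- (GrnKO). Each genotype had 3 animals with a male and 3 with a female label. All animals were on a C57Bl/6J background with the hTfRmu/hu knock-in, a humanized transferrin receptor allele that WT and GrnKO therefore shared. Brains of both genotypes were dissociated with actinomycin D at 5 μM and anisomycin at 2 μM, which block transcription and translation. From each brain 1000 cells of low and 1000 cells of high autofluorescence at 488 nm, used as a measure of lipofuscin, were sequenced as 1 library each. This gave 4 groups of 6 libraries, named WT or GrnKO for the genotype and low or high for the bin, with both bins of an animal paired. Grn encodes progranulin, a secreted protein that is carried to lysosomes, and lipofuscin is the undigested residue that lysosomes gather with age.

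TREM2 is a surface receptor of microglia that binds lipids and lipoproteins such as APOE, and it has no signalling motif of its own. It pairs in the membrane with TYROBP (also called DAP12), whose tail is phosphorylated and recruits the kinase SYK, which leads to activation of PLCG2. HCST (also called DAP10) is a second adaptor that recruits phosphoinositide 3-kinase, INPP5D (SHIP1) removes the lipid product of that kinase, and PTPN6 (SHP-1) is recruited by inhibitory receptors to remove phosphates from signalling proteins. In humans, loss of TREM2 or of TYROBP causes Nasu-Hakola disease, with early dementia and bone cysts.

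The promoters of Trem2 and Hcst are shown because both transcripts were higher in every GrnKO low library than in any WT low library. They are RefSeq sequences of build GRCm38.p6, each running from 250 bases before to 50 bases after the gene's start, and the counts themselves were made on another build. Capitals mark the PU-box GAGGAA on either strand, 1 form of the sites for PU.1, a transcription factor of macrophages. Other forms of these sites were not searched for. The Trem2 window is chr17:48346151-48346450 on the plus strand and the Hcst window is chr7:30419805-30420104 on the minus strand.
Trem2 promoter: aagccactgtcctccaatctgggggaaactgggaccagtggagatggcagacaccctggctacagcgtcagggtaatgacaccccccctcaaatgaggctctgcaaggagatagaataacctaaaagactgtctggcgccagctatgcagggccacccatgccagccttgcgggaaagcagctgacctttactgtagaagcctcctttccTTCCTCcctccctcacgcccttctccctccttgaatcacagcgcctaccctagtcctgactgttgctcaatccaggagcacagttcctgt
Hcst promoter: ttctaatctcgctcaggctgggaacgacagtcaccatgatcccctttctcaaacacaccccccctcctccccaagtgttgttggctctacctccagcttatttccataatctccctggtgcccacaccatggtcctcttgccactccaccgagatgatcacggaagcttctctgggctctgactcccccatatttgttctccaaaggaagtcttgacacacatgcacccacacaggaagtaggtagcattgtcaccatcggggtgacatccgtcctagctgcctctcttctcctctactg
The Trem2 window held 1 PU-box, on the minus strand from position -40 relative to the start, and the Hcst window held 0. Windows were found for 8 of the 10 genes (9 windows, with 2 for Syk), and Tyrobp and Lilrb4a were not among them. Of the 9 windows 4 held a PU-box (Trem2, Inpp5d, Cd33 and 1 of those of Syk), against 28.3% of 32851 mouse promoter windows of that length. The E-box CACGTG, searched on both strands, was found in 1 of the 9 (Plcg2, against 7.15% of all), and the AP-1 site TGANTCA in 1 (Trem2, against 7.81% of all). These motifs do not overlap in their letters, and a match is a description of the sequence and not a site.

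Libraries held 12.9 to 46.8 M counts, with a median of 30.5 M. Levels are given as CPM, counts scaled to library size times the TMM normalization factor of each library. The WT libraries had 435 to 1476 CPM of Grn and the GrnKO libraries 0.520 to 20.3 CPM. Xist, expressed from the inactive X chromosome of females, had 699 to 2252 CPM under the male label and 1.01 to 2.21 CPM under the female label, opposite to the labels in all 12 animals. The label entered the model only as a split of each genotype into 3 and 3. All 12 microglial markers were detected in every group, and they summed to between 12838 and 34530 CPM. Markers of neutrophils, monocytes and T and NK cells had higher mean sums in the low bin. The 9 neutrophil markers summed to 1631 to 22091 CPM in WT low and 3790.2 to 31781 CPM in GrnKO low, but to 14.6 to 2803 CPM in WT high and 26.2 to 3513 CPM in GrnKO high. The 7 monocyte markers summed to 316 to 1984 CPM in the low and 8.71 to 150.6 CPM in the high libraries. Of the 12 T and NK cell markers, the sum was 47.8 to 310 CPM in WT low, 320 to 963 CPM in GrnKO low, 13.1 to 136 CPM in WT high and 40.3 to 218 CPM in GrnKO high, so WT low and GrnKO low did not overlap. The 7 markers of border-associated macrophages summed to 153 to 256 CPM in WT low, 193 to 750.5 CPM in WT high, 82.4 to 189.9 CPM in GrnKO low and 87.5 to 413 CPM in GrnKO high. The 6 astrocyte markers to 96.7 to 1413 CPM and the 6 oligodendrocyte markers to 91.6 to 2905 CPM. The 7 dendritic cell markers, of which microglia express Siglech, summed to 320 to 1253 CPM, and the 6 B cell markers to 188 to 1320 CPM apart from 9057 CPM in GrnKO low animal 2. The dendritic cell sums had means of 851 and 1025 CPM in WT low and high and 780 and 881 CPM in GrnKO low and high. The B cell sums had medians of 629 and 708 CPM in WT low and high and 715 and 601 CPM in GrnKO low and high. Ttr, a choroid plexus transcript, reached 20226 to 78080.3 CPM in WT low animals 1 and 9, WT high animal 1 and GrnKO low animal 8, and at most 1874 CPM elsewhere. Mitochondrial genes took 9.70% and 7.91% of the counts in the low and high libraries of WT animal 1, and 1.46% to 2.96% in the other 22 libraries.

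The first comparison asked what loss of Grn changed in the cells with little lipofuscin. Both adaptor transcripts rose in GrnKO low, by 2.00-fold for Tyrobp and 2.05-fold for Hcst, and 2 of the 10 genes were called higher and 0 lower. Of all tested genes 0.270% were called higher and 0.0568% lower. A call is an adjusted p under 0.05 in edgeR's quasi-likelihood test with Benjamini-Hochberg adjustment over all tested genes. The median log2 fold change (log2FC) of the 10 was 0.31, against -0.03 over all tested genes, and 7 of the 10 were positive. Trem2, Tyrobp and Hcst were higher in every GrnKO low library than in any WT low library, which held for 0.774% of tested genes.

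Tyrobp, the adaptor through which TREM2 signals, had a lowest, median and highest level of 3528, 4049 and 4577 CPM in WT low. In GrnKO low these values were 5124, 7756 and 11471 CPM. The GrnKO libraries were all above the WT ones and spread more widely, with coefficients of variation of 30.2% and 10.1%. The log2FC was 1.00 (SE 0.202, edgeR adjusted p = 0.0156, n = 6 animals per group), a 2.00-fold difference of levels. The call was lost without animal 3, 4, 11 or 12 (adjusted p of at most 0.0820, log2FC 0.87 to 1.11 over all 12 omissions). Without the 4 libraries highest in neutrophil markers (WT low animals 3 and 11, GrnKO low animals 6 and 12) the log2FC was 1.02 and the adjusted p 0.249.

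Hcst, the adaptor that couples to phosphoinositide 3-kinase, had 67.3, 77.2 and 105 CPM as its lowest, median and highest levels in WT low. In GrnKO low it had 123, 168 and 212 CPM, with no overlap. The log2FC was 1.04 (SE 0.200, edgeR adjusted p = 0.0109), a 2.05-fold difference, and the adjusted p was 0.0529 without animal 4 and 0.0589 in a fit of these 12 libraries alone. Without the 4 libraries highest in neutrophil markers the log2FC was 1.16 and the adjusted p 0.139. T and NK cells also express Hcst, and their marker sum likewise did not overlap between GrnKO low and WT low (medians 581 and 261 CPM, with Ncr1 at 0 counts in most libraries of both). The part of those cells, or of neutrophils, in the Hcst difference was not tested. In bulk samples such as these, a change in the number of cells of a type and a change in RNA per cell cannot be told apart.

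Trem2 itself did not pass by a narrow margin in the low bin. Its lowest, median and highest levels were 826, 1918 and 2181 CPM in WT low and 2579.5, 2938 and 4191 CPM in GrnKO low. All 6 GrnKO libraries stood above all 6 WT ones. The log2FC was 0.80 (SE 0.186, edgeR adjusted p = 0.0548), and the adjusted p was 0.00151 in DESeq2, 0.0217 in limma-voom and 0.00915 in edgeR without WT animal 1, whose low library held the 826 CPM. It was under 0.05 in 7 of 22 alternative analyses and reached 0.379 without the 4 libraries highest in neutrophil markers (log2FC 0.87). Of the 12 omissions of an animal, 2 (animals 1 and 9) brought it under 0.05, and it was at most 0.178 in the others.

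**Figure D1:**
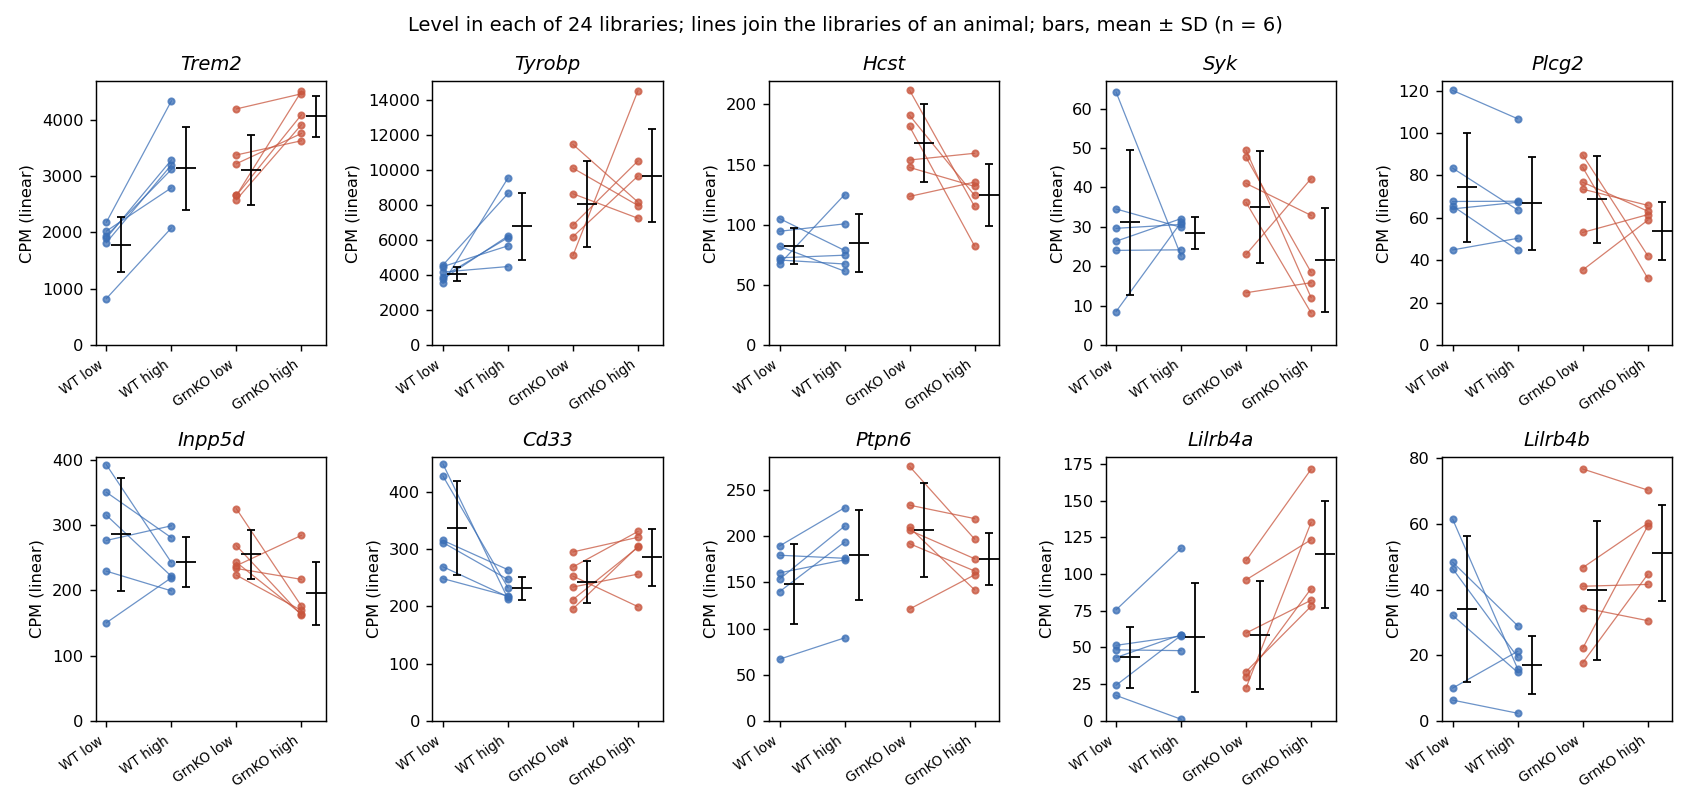
Level of each of the 10 genes in CPM (linear axes from 0) in the 24 libraries, with lines joining the libraries of an animal, WT in blue and GrnKO in red, and bars for the mean ± SD of 6 animals. In GrnKO low, Trem2, Tyrobp and Hcst lie above every WT low library, and Trem2 climbs from low to high in all 12 animals.

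The signal transducers below the adaptors were not called. Syk, the kinase that docks on phosphorylated TYROBP, ranged from 8.51 to 64.2 CPM in WT low and from 13.3 to 49.4 CPM in GrnKO low (log2FC 0.17, SE 0.415, edgeR adjusted p = 0.961). Its log2FC turned negative in 2 of 22 alternative analyses. Plcg2, the phospholipase that SYK activates, ranged from 44.9 to 120.1 CPM and from 35.4 to 89.7 CPM (log2FC -0.08, SE 0.269), and it turned positive in 4 of 22. Both pairs of ranges overlapped widely. Inpp5d, which opposes phosphoinositide 3-kinase, ranged from 150.1 to 392 CPM in WT low and from 223 to 325 CPM in GrnKO low (log2FC -0.17, SE 0.192).

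Of Cd33, Ptpn6, Lilrb4a and Lilrb4b, none was called in the low bin by edgeR, DESeq2 or limma-voom. Cd33 and Ptpn6 had an unadjusted p under 0.05 in edgeR. With Trem2, Tyrobp and Hcst that made 5 of the 10 genes, against 10.2% of all tested genes. Cd33 encodes a sialic acid-binding lectin that in humans restrains microglial uptake. It ranged from 249 to 449 CPM in WT low and from 196 to 295 CPM in GrnKO low, with a log2FC of -0.47 (SE 0.165, edgeR adjusted p = 0.255). Ptpn6 ranged from 66.8 to 189.5 CPM and from 121 to 276 CPM (log2FC 0.49, SE 0.219, edgeR adjusted p = 0.424). Lilrb4a, which encodes the receptor gp49B with inhibitory motifs in its tail, ranged from 17.3 to 75.6 CPM in WT low and from 22.5 to 109 CPM in GrnKO low. Lilrb4b, which encodes the close copy gp49A without those motifs, ranged from 6.31 to 61.4 CPM and from 17.6 to 76.7 CPM. For both, the groups overlapped and the log2FC (0.44 and 0.18) was below its SE (0.561 and 0.510), with a negative value for Lilrb4b in 4 of 21 alternative analyses.

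In the high bin no gene of the set passed between genotypes. edgeR, DESeq2 and limma-voom each called 0 of the 10, while 3 (Tyrobp, Hcst and Lilrb4b) had an unadjusted p under 0.05 in edgeR. Of all tested genes 0.163% were called by edgeR and 6.30% had an unadjusted p under 0.05. Tyrobp had 4491, 6187 and 9551 CPM as its lowest, median and highest levels in WT high and 7252, 8922 and 14546 CPM in GrnKO high (log2FC 0.51, SE 0.200, edgeR adjusted p = 0.550). The groups overlapped, since WT high animals 1 and 9 lay above the lowest GrnKO libraries. Hcst had 61.4, 76.7 and 125 CPM against 82.4, 128 and 159 CPM (log2FC 0.56, SE 0.199, edgeR adjusted p = 0.458). Trem2 had 2079, 3158 and 4334 CPM against 3626, 3999 and 4502 CPM (log2FC 0.37, SE 0.185, edgeR adjusted p = 0.833). WT high animal 9 alone exceeded the lowest GrnKO library. The differences between the bins in the effect of genotype were -0.43 for Trem2, -0.49 for Tyrobp and -0.48 for Hcst (SE 0.262, 0.282 and 0.281, edgeR adjusted p = 0.998, 0.995 and 0.995), so a smaller effect in the high bin was not shown.

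Lilrb4b was the only one of the 10 whose groups did not overlap in the high bin. It had 2.3, 17.6 and 29 CPM in WT high and 30.5, 52 and 70.3 CPM in GrnKO high, a pattern held by 0.724% of tested genes. The log2FC was 1.57 (SE 0.504, edgeR adjusted p = 0.337, DESeq2 adjusted p = 0.0709). Lilrb4a had 1.07, 58 and 117 CPM against 78, 106.7 and 171 CPM and overlapped through WT animal 11 (log2FC 1.01, SE 0.565). The library of WT high animal 1 was the lowest for both. Reads could be split between these copies: 10.5% of the windows of 100 bases, the read length, of the longest coding Lilrb4b transcript and 14.3% of those of Lilrb4a also occur in a transcript of the other gene (GENCODE, build GRCm38). These windows were counted evenly along each transcript. Reads of a 3' kit need not lie evenly, so the percentages are not shares of reads. With Lilrb4a and Lilrb4b counted as 1 gene the log2FC in the high bin was 1.16 (SE 0.502, edgeR adjusted p = 0.666). The merged level was 3.37 to 133 CPM in WT high and 113 to 242 CPM in GrnKO high.

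The remaining genes overlapped between genotypes in the high bin. Cd33 ranged from 213 to 264 CPM in WT high and from 199.5 to 331 CPM in GrnKO high (log2FC 0.30, SE 0.165), where the low bin had a log2FC of -0.47. Syk (log2FC -0.40, SE 0.415), Plcg2 (-0.32, SE 0.266) and Inpp5d (-0.33, SE 0.192) had overlapping ranges, as did Ptpn6 (-0.02, SE 0.219), whose log2FC changed sign in 6 of 22 alternative analyses.

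When both libraries of an animal were summed, so that each animal counted once, the adaptors were again the genes called. Hcst had a log2FC of 0.81 (SE 0.138, edgeR adjusted p = 0.0232) and Tyrobp of 0.71 (SE 0.127, edgeR adjusted p = 0.0325), while 0.203% of 13801 tested genes were called higher and 0.0435% lower. Trem2 stood at 0.53 (SE 0.160, edgeR adjusted p = 0.287). Both calls were close to the threshold. Tyrobp lost it without animal 2, 3, 4, 5, 7, 8, 10, 11 or 12 (adjusted p of at most 0.133) and Hcst without animal 2, 3, 4, 5, 6, 7 or 12 (at most 0.0932), with log2FC of at least 0.66 and 0.77 throughout. These libraries are those of the comparisons within bins, so the sums are no independent evidence.

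**Figure D2:**
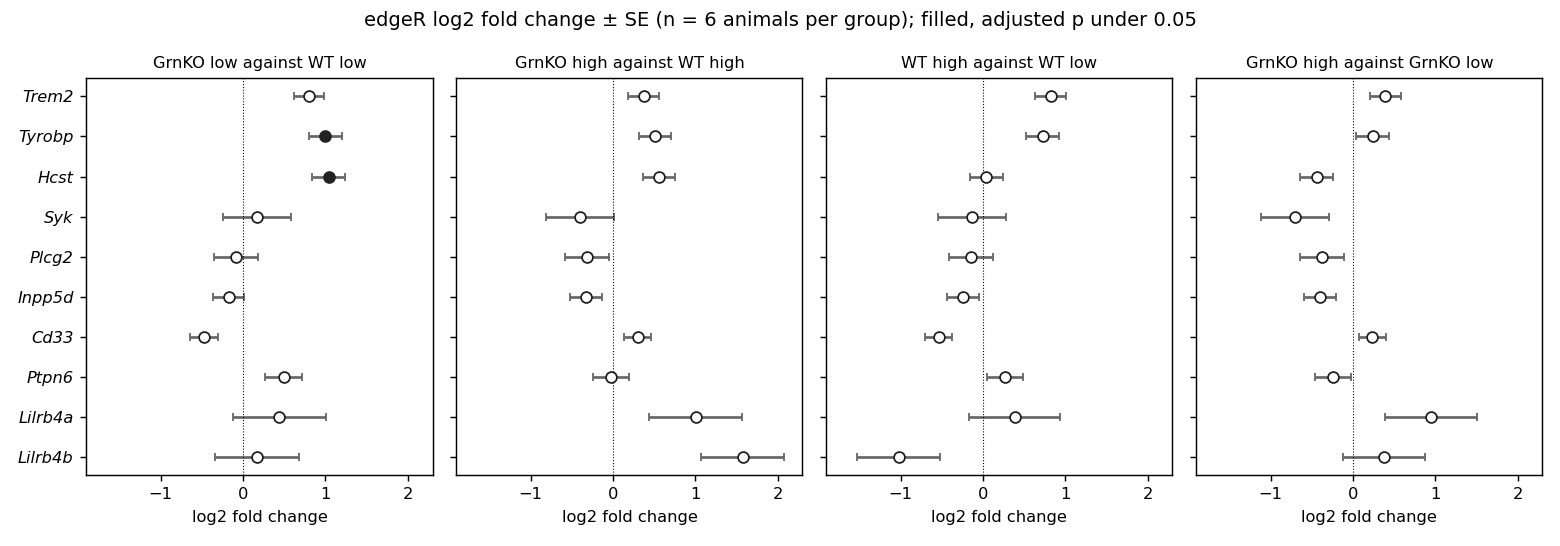
log2 fold change of each gene ± SE from edgeR (x axis) in the 4 comparisons of 6 against 6 libraries, with filled points where the adjusted p is under 0.05. The only filled points are Tyrobp (1.00) and Hcst (1.04) in GrnKO low against WT low.

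The second question was how the genes differed between cells of high and low lipofuscin of the same animals. In CPM, Trem2 rose with lipofuscin. Its high library exceeded its low library in 12 of 12 animals, which held for 0.511% of tested genes. Averaged over genotypes its log2FC from low to high was 0.61 (SE 0.132, edgeR adjusted p = 0.0153), where 0.440% of tested genes were called higher and 0.873% lower. With the animal as a block it was 0.62 (SE 0.0865, edgeR adjusted p = 0.000746), where 0.745% of tested genes were called higher. The call of the unblocked fit was lost without GrnKO animal 2 (adjusted p = 0.0514). It was also lost with library size as the only scaling (log2FC 0.47, adjusted p = 0.0812), which lowers the median log2FC over all tested genes from -0.04 to -0.18 in this comparison. Without the 4 libraries highest in neutrophil markers, all of the low bin, the log2FC was 0.61 and the adjusted p 0.111.

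In WT, Trem2 went from a median of 1918 to 3158 CPM, and the ranges overlapped only through animal 1, whose high library held 2079 CPM. The log2FC was 0.82 (SE 0.187, edgeR adjusted p = 0.0584), and it passed with the animal as a block (0.84, SE 0.123, adjusted p = 0.00254). By the blocked fit 1 of the 10 genes was called in WT, against 0.454% of tested genes, and by the unblocked fit 0, against 0.248%. DESeq2 called 2 (Trem2 and Tyrobp) and limma-voom 1 (Trem2). In edgeR 3 (Trem2, Tyrobp and Cd33) had an unadjusted p under 0.05, against 8.25% of tested genes. Within animals the change in WT lay between 0.46 and 1.33 on the log2 scale. In GrnKO it lay between 0.09 and 0.76, with a log2FC of 0.39 (SE 0.186, edgeR adjusted p = 0.616, and 0.269 with the block). The difference of these effects was -0.43 (SE 0.262, edgeR adjusted p = 0.998). Levels of Trem2 thus ran from WT low through GrnKO low and WT high to GrnKO high by group mean (1781 ± 484, 3113 ± 624, 3134 ± 735 and 4057 ± 363 CPM, mean ± SD), and the ranges of GrnKO low and WT high overlapped.

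The summed markers of border-associated macrophages were likewise higher from low to high in 6 of 6 WT animals (means 218 and 434 CPM) and in 4 of 6 GrnKO animals (153 and 221.8 CPM), with 0 of 7 markers called. Between genotypes all 7 were negative in both bins, where Trem2 was positive. The part of these cells in the Trem2 rise was not tested.

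The rise of Trem2 in WT was also present relative to the summed microglial markers, but the rise in GrnKO was not. That sum is not a fixed reference. From low to high 10 of the 12 markers were positive in WT and 8 in GrnKO. Of these Aif1 was called higher in WT (log2FC 0.71, edgeR adjusted p = 0.00606). The sum also holds C1qa, whose levels ranked much like those of Trem2 (Spearman's rho 0.903 over 24 libraries). The summed microglial markers themselves went from a mean of 22333 CPM in WT low to 26302 CPM in WT high. In GrnKO their means were 20244 CPM in the low and 26944 CPM in the high bin. Per 100 CPM of the summed microglial markers, Trem2 lay between 6.43 and 10.8 in WT low and between 8.08 and 18.7 in WT high, and within animals the high value exceeded the low one in 6 of 6. In GrnKO it lay between 11.6 and 19.8 in the low and between 13.3 and 18 in the high bin. There it was higher in 3 of 6 animals and lower in 3 of 6, so the rise seen in CPM in all GrnKO animals was not kept. On this scale GrnKO low lay above every WT low library, as it did in CPM.

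Tyrobp did not pass the main test between bins. In WT its high library exceeded the low one in 6 of 6 animals, which held for 3.35% of tested genes, with changes of 0.10 to 1.44 on the log2 scale. The log2FC was 0.73 (SE 0.200, edgeR adjusted p = 0.175, and 0.241 with the block), and the adjusted p in DESeq2 was 0.0357. In GrnKO it was higher in 3 of 6 animals, with changes from -0.49 to 1.51 (log2FC 0.24, SE 0.202, negative in 1 of 23 alternative analyses). Averaged over genotypes the log2FC was 0.48 (SE 0.143, edgeR adjusted p = 0.103).

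Hcst, which is next to Tyrobp on chromosome 7 with 0 genes between them, was not called between bins. In WT its log2FC from low to high was 0.04 (SE 0.198, negative in 2 of 23 alternative analyses, among them scaling by library size alone), with 3 of 6 animals higher, and in GrnKO -0.44 (SE 0.200, edgeR adjusted p = 0.580), with 4 of 6 lower. Per 100 CPM of Tyrobp, Hcst lay between 1.47 and 2.98 in WT low and between 0.824 and 1.62 in WT high. In GrnKO it lay between 1.80 and 3.00 in the low and between 1.1 and 1.56 in the high bin. From low to high the ratio was lower in 6 of 6 WT and 6 of 6 GrnKO animals, and between genotypes its ranges overlapped in both bins. In WT, Tyrobp itself was higher in 6 of 6 animals and Hcst in 3 of 6. In GrnKO, Tyrobp was higher in 3 of 6 and Hcst in 2 of 6. The share of other genes with such a ratio to Tyrobp was not computed, and the ratio was not tested. The T and NK cell marker sum was also lower from low to high in 5 of 6 WT and 6 of 6 GrnKO animals. Its part in the ratio was not tested. Trem2 per 100 CPM of Tyrobp had medians of 47, 51.1, 38.3 and 44.7 in the low and high bins of WT and then of GrnKO, and it was higher from low to high in 4 of 6 WT and 3 of 6 GrnKO animals.

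**Figure D3:**
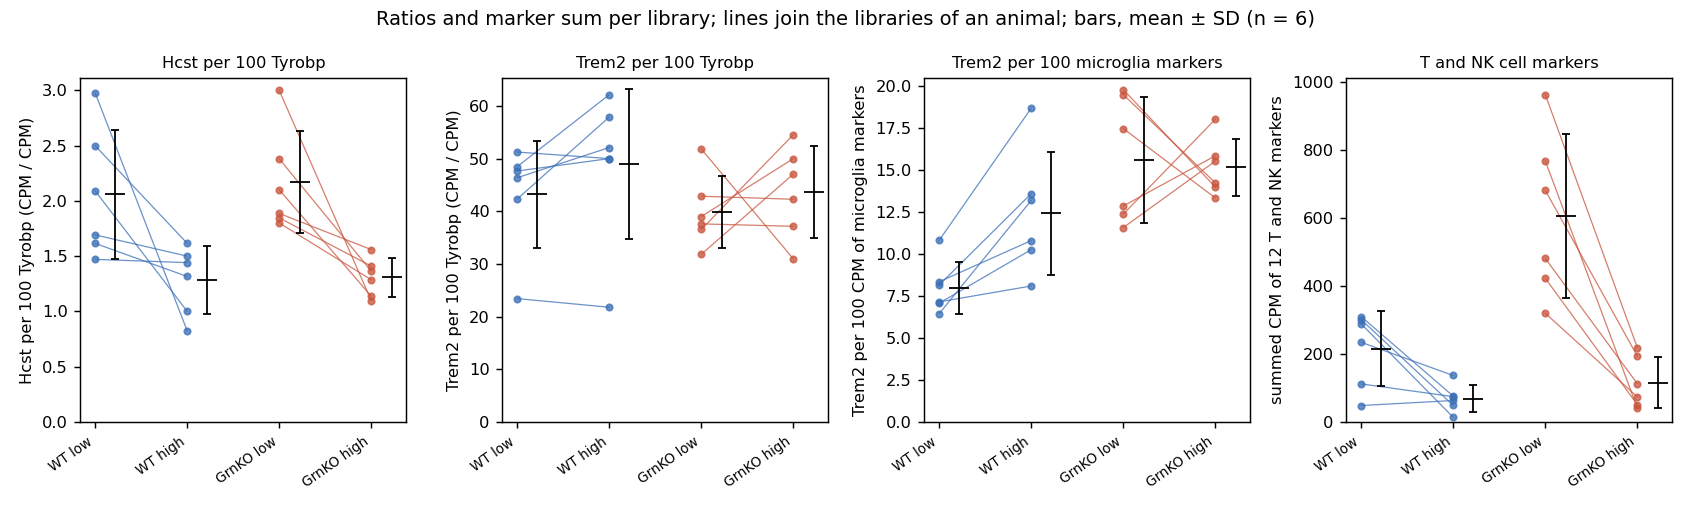
Hcst and Trem2 per 100 CPM of Tyrobp, Trem2 per 100 CPM of 12 microglial markers, and the summed CPM of 12 T and NK cell markers in each library, with lines joining the libraries of an animal and bars for the mean ± SD of 6 animals (all axes linear from 0). The Hcst ratio, which was not tested, falls from low to high in all 12 animals, and the T and NK marker sum falls in all but WT animal 3.

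The enzymes below the receptor complex were not called between bins. Syk was higher from low to high in 4 of 6 WT and 2 of 6 GrnKO animals. It changed by between -1.48 and 1.81 within WT animals and by between -2.08 and 0.86 within GrnKO animals (log2 scale), the widest spread of these enzymes. Plcg2 was higher from low to high in 3 of 6 WT and 2 of 6 GrnKO animals. Inpp5d was lower in 4 of 6 WT and 5 of 6 GrnKO animals, with an average log2FC of -0.32 (SE 0.136, edgeR adjusted p = 0.349). In GrnKO, edgeR, DESeq2 and limma-voom each called 0 of the 10 genes, while 3 (Trem2, Hcst and Inpp5d) had an unadjusted p under 0.05 in edgeR. Of tested genes 0.206% were called by edgeR and 7.82% had an unadjusted p under 0.05. With the animal as a block 0 of the 10 were called, against 0.341%.

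Among Cd33, Ptpn6, Lilrb4a and Lilrb4b, Cd33 had a negative log2FC from low to high in WT and a positive one in GrnKO. In WT it had 249, 313 and 449 CPM as its lowest, median and highest levels in the low bin and 213, 225 and 264 CPM in the high bin. Within WT animals it was lower from low to high in 6 of 6, as were 2.95% of tested genes. In GrnKO it had 196, 243 and 295 CPM in the low bin and 199.5, 304 and 331 CPM in the high bin, and it was higher in 5 of 6 animals, with animal 12 the exception. Per 100 CPM of the summed microglial markers, Cd33 was also lower in 6 of 6 WT animals, but in GrnKO it was then higher in 2 of 6 and lower in 4 of 6, so the positive direction in GrnKO was not kept on that scale. The log2FC was -0.54 in WT (SE 0.165, edgeR adjusted p = 0.228) and 0.23 in GrnKO (SE 0.165, edgeR adjusted p = 0.891). The difference between these effects was 0.77 (SE 0.233, unadjusted p = 0.00270, edgeR adjusted p = 0.786, DESeq2 adjusted p = 0.145) and was not called.

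The difference for Cd33 was one of 10 such tests, and edgeR called 0 of the 10 genes and 0 of 14090 for the interaction. Of the tested genes 738 (5.24%) had an unadjusted p under 0.05, Cd33 alone among the 10. DESeq2 called 71 genes and limma-voom 1, with 0 of the 10 by either. Ptpn6 was higher from low to high in 5 of 6 WT animals and lower in 5 of 6 GrnKO animals (difference -0.51, SE 0.309). Lilrb4b was lower in 5 of 6 WT animals and higher in 4 of 6 GrnKO animals (difference 1.40, SE 0.709). Lilrb4a was higher in 6 of 6 GrnKO animals, as were 3.30% of tested genes, and in 4 of 6 WT animals, with changes from 0.36 to 2.56 in GrnKO and from -3.50 to 1.25 in WT.

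**Figure D4:**
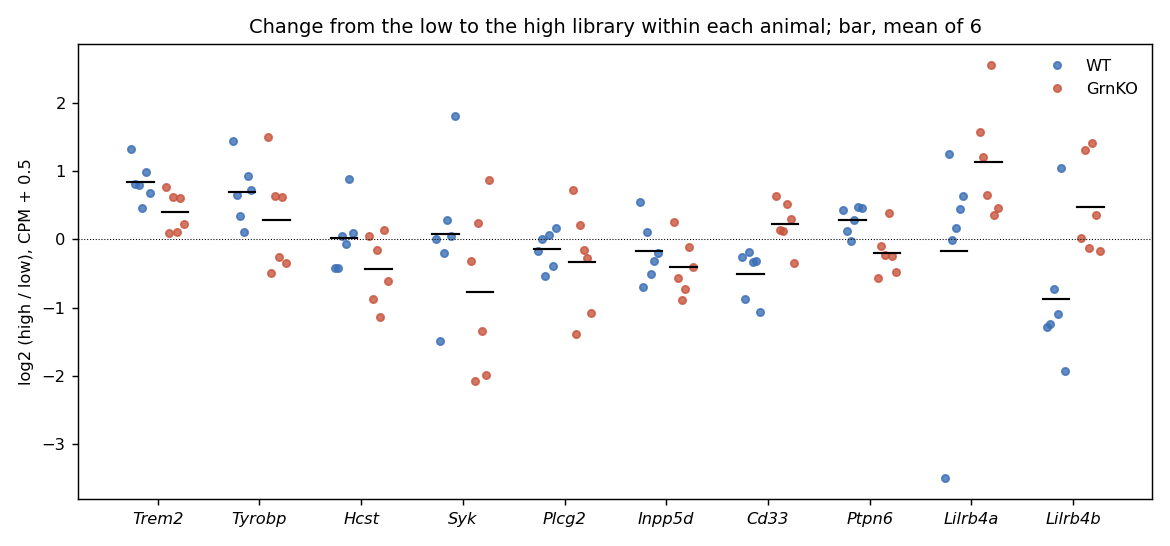
Change from the low to the high library of each animal (log2 of CPM + 0.5, y axis) for the 10 genes, with WT in blue, GrnKO in red and a bar for the mean of 6 animals. Trem2 is above 0 in all 12 animals, while Cd33 is below 0 in all 6 WT animals and above 0 in 5 of 6 GrnKO animals.

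The other genes of the pathway were taken from lists, and most of these were not called. Of 32 tested kinases and adaptors downstream of SYK and the Src family, edgeR called 0 in each of the 4 comparisons within a bin or genotype, with medians of -0.03 for genotype in the low bin and 0.02 in the high bin (all tested genes -0.03 and -0.06). From low to high, 25 of the 32 were negative in WT (median -0.25) and 23 in GrnKO (median -0.20), with a median over all tested genes of -0.04 and -0.05. Positive values made up 47.5% of all tested genes in WT and 46.4% in GrnKO. Of 16 tested negative regulators such as Cbl and Dok genes (17 listed), 0 were called, with medians of -0.19 and -0.35 for genotype in the low and high bins. Of 16 inhibitory receptors outside the set, such as Sirpa and Lair1, 0 were called, with medians of 0.13 and -0.26. Over all tested genes 0.270% were called higher and 0.0568% lower for genotype in the low bin, and 0.163% were called in the high bin. For lipofuscin the shares called were 0.248% in WT and 0.206% in GrnKO. A count of 0 in lists of this size is near these shares.

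Among ligands and sheddases of TREM2, Apoe and Lgals3 were the genes called. Of 6 tested genes for ligands and sheddases (7 listed), 2 were called higher in GrnKO low and 0 lower, against 0.270% and 0.0568% of all tested genes. In GrnKO high 1 (Lgals3) was called higher, against 0.163% of all tested genes called, and the list had a median log2FC of -0.09. From low to high 1 (Apoe) was called in WT and 0 in GrnKO, against 0.248% and 0.206% of all. Apoe, which encodes a lipoprotein that TREM2 binds, rose from 5693 ± 2482 CPM in WT low to 16955 ± 3855 CPM in GrnKO low (log2FC 1.56, SE 0.237, edgeR adjusted p = 0.000771). It also rose with lipofuscin in WT, to 16399 ± 5691 CPM (log2FC 1.52, SE 0.237, edgeR adjusted p = 0.00205). Lgals3, which encodes galectin-3, rose with Grn loss in the low bin (1005 ± 173 against 316 ± 106 CPM, log2FC 1.66, SE 0.264, edgeR adjusted p = 0.00141). It also rose in the high bin, from 382 ± 145 CPM in WT to 1194 ± 400.2 CPM in GrnKO (log2FC 1.64, edgeR adjusted p = 0.00274).

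Several other receptors that signal through TYROBP fell from low to high, while Siglech and Clec5a had higher means in the high bin. The list was a wider one of 14 receptors linked to TYROBP, which also held Csf1r and Treml2. Of these 14, 4 were called lower and 0 higher from low to high averaged over genotypes, against 0.873% and 0.440% of all tested genes. Of the 14, 2 were positive, as were 47.0% of all tested genes (median log2FC -1.64, all tested genes -0.04). Within genotypes 1 of the 14 (Trem3) was called lower in WT and 0 in GrnKO, against 0.248% and 0.206% of all tested genes called. Trem3 stood at 23 ± 18.4 CPM in WT low and 0.143 ± 0.280 CPM in WT high, and at 31.2 ± 19 and 2.12 ± 2.88 CPM in GrnKO low and high (edgeR adjusted p = 0.000997 for the average). Sirpb1c, which stood at 42.5 ± 32.2 CPM in WT low and 2.87 ± 3.01 CPM in WT high, and Sirpb1b were called as well (edgeR adjusted p = 0.00521 and 0.0102). The fourth, Trem1, is an activating receptor of neutrophils and monocytes and was at 0 counts in 3 of 6 WT high and 3 of 6 GrnKO high libraries. The neutrophil and monocyte marker sums given above were lower in the same libraries, and their part in these calls was not tested. Csf1r, a growth factor receptor of microglia, stood at 1180.2 ± 135 CPM in WT low and 1191 ± 286 CPM in WT high, and was not called. Siglech had means of 780 and 989 CPM in WT low and high and 721 and 859 CPM in GrnKO low and high. Clec5a had means of 82.6 and 108 CPM in WT low and high and 77.7 and 86 CPM in GrnKO low and high. Siglech and Clec5a were not called from low to high.

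Over all 24 libraries the genes whose levels ranked most like Trem2 were Cd68 (Spearman's rho 0.931), C1qb (0.913), Syngr1 (0.911), C1qa (0.903) and C1qc (0.903), among 2444 named genes with a mean of at least 50 CPM. Those most like Tyrobp were Fcer1g (0.944), Atp6v1f (0.914), Ssr4 (0.903), Syngr1 (0.879) and Sh3bgrl3 (0.878). Fcer1g encodes the adaptor of Fc receptors, which like TYROBP carries an activating motif. These libraries share animals, depth and cell makeup, so the values describe likeness over 24 libraries only.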

How the data were processed

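RNA was measured in 24 libraries of 1000 microglia with a 3' SMART-Seq kit and single-end reads, per the labels' protocols. In the submitters' processing notes, build GRCm39 and the tools R 4.5.1, Salmon 1.10.1, STAR 2.7.9a and edgeR 4.6.2 are named, without their roles. The sources used here do not say whether reads were counted by strand. The authors deposited estimated counts per gene written with 2 significant digits, so a printed level can be off by up to 5% from rounding. The authors also deposited a normalized CPM table (a signal scaled by library size and factor), where 100% of entries with over 50 counts matched counts divided by size times factor to 7 percent, and a normalization factor per library (a ratio), both used only as checks. The number of per-sample columns that matched no sample was 0.

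Estimated counts were rounded to whole numbers, since the design had assumed counts. filterByExpr left 14090 of 56980 genes. A quasi-likelihood model (edgeR 4.0.16, limma 3.58.1, R 4.3.3; TMM scaling, robust) was fitted to all 24 libraries with a term for each group and for the label of sex. Tests were 2-sided and adjusted over all tested genes. DESeq2 1.42.0 and limma-voom were alternatives, and the other alternatives are given in the closing section. The model was tested on simulated data. Figures were drawn with matplotlib 3.10.9.

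Libraries with the same number come from 1 animal, per the labels, and are paired. After subtracting group means, the pairs had correlations of -0.0392 to 0.346 (median 0.108) over 7205 genes. Of 60 pairs of libraries within a group, 0 were identical. Each group holds 6 separate animals. Counts carry no molecular identifiers. The genes, lists and tests were chosen with earlier results of these data known. All 10 genes are named in each comparison, as are called genes of the lists, up to 3 per direction and list, and the 5 genes most like Trem2 and Tyrobp. Cbl, Dok, Sirpa, Lair1, Csf1r, Trem1, Siglech and Clec5a were named after their values were seen.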

Additional observations from a re-analysis of the deposited data

Results flagged for a closer look

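In 2 of 40 checks of a gene within a group of 6, a library stood far from the others, which is the number that chance gives at about 1 in 20. Trem2 in WT low was 826 CPM in animal 1, against 1818 to 2181 CPM in the other animals. Plcg2 in WT high was 107 CPM in animal 1, against 44.8 to 67.9 CPM in the other animals. The Trem2 value is from the low and the Plcg2 value from the high library of WT animal 1, which are both among the 4 highest in Ttr. They had 9.70% (low) and 7.91% (high) mitochondrial counts, against 1.46% to 2.96% in the other 22 libraries, and the low library had the lowest depth (12.9 M counts). The part of these in the outlying values was not tested. No gene of the set had effects of lipofuscin that differed between genotypes past the threshold, or that ran one way in all animals of one genotype and the opposite way in all of the other.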

How the results depend on the processing

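The log2FC of Trem2, Tyrobp and Hcst kept its sign between genotypes in all alternatives run (22 per bin, 19 for the sums). Counts of called genes are given first for the 10 genes and then for all tested genes, beside the main fit's 2 and 46 (genotype, low bin), 0 and 23 (genotype, high bin), 0 and 35 (lipofuscin in WT), 0 and 29 (lipofuscin in GrnKO), 0 and 0 (interaction), 1 and 185 (lipofuscin averaged) and 2 and 34 (genotype, summed). Without the filter they were 3 and 313, 2 and 284, 2 and 299, 0 and 360, 0 and 329, 2 and 1040, and 4 and 363. DESeq2 gave 3 and 358, 0 and 192, 2 and 263, 0 and 297, 0 and 71, 2 and 503, and 2 and 272. limma-voom gave 46 genes for genotype in the high bin, 1 and 48 for lipofuscin in WT, 71 in GrnKO, 1 for the interaction and 83 for the sums. DESeq2 size factors called 1 of the 10 in WT. Library size alone called 0 of the 10 for lipofuscin averaged and 1 for the sums, and shifted the median of all tested genes from -0.03 to -0.17 for genotype in the low bin; it called 29 higher and 19 lower there, against 38 and 8. In the high bin it called 14 and 7 against 19 and 4, in WT 10 and 25 against 14 and 21, in GrnKO 1 and 27 against 4 and 25, for lipofuscin averaged 26 and 159 against 62 and 123, and for the sums 17 and 9 against 28 and 6. The replicate block, possible for lipofuscin and the interaction, gave 1 and 64 in WT, 0 and 48 in GrnKO, 0 and 0 for the interaction and 1 and 216 averaged, and changed no other call among the 10. A fit of the 2 groups compared gave 1 and 21, 0 and 29, 0 and 7, and 0 and 61 for the first 4 comparisons. The next settings were added after the data were seen. Without the 4 libraries highest in Ttr the counts were 3 and 120, 1 and 61, 2 and 82, 0 and 57, and, for lipofuscin averaged, 1 and 335. There Lilrb4b was called higher in GrnKO high (log2FC 1.31, adjusted p = 0.0279) and lower in WT high than WT low (log2FC -1.34, adjusted p = 0.0423). Without the 4 highest in neutrophil markers they were 0 and 15, 0 and 18, 0 and 8, 0 and 1, and 0 and 76, where Tyrobp and Hcst kept log2FC of 1.02 and 1.16 in the low bin (adjusted p = 0.249 and 0.139). Merging Lilrb4a and Lilrb4b changed no count among the 10. Leaving out each animal in turn gave 0 to 3 of the 10 and 30 to 116 genes for genotype in the low bin, 0 and 8 to 50 in the high bin, 0 to 1 and 7 to 53 for lipofuscin in WT, 0 and 2 to 62 in GrnKO, 0 and 0 for the interaction, 0 to 1 and 119 to 312 averaged, and 0 to 2 and 17 to 142 for the sums. The causes of these differences were not tested. Depth was at least 12.9 M counts per library, and every gene of the set had at least 19 counts.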

Other observations

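Tyrobp was compared with Fcer1g, the gene whose levels ranked most like it, because both encode adaptors with an activating motif. Per 100 CPM of Fcer1g, Tyrobp lay between 35.6 and 42.5 in WT low and between 41.2 and 49.4 in GrnKO low. In the high bin it lay between 34.5 and 45.2 in WT and between 45.9 and 50.7 in GrnKO. These printed ranges did not overlap, but the gap is within the rounding of the deposited counts (up to 5%). The share of other ratios with such a gap was not computed. The ratio was chosen after the levels were seen and was not tested.

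Per 100 CPM of Trem2, Cd33 lay between 12.3 and 38.2 in WT low, between 5.00 and 12.7 in WT high, between 5.58 and 11.1 in GrnKO low and between 5.31 and 8.46 in GrnKO high. WT low lay above both GrnKO groups without overlap, and within WT the ratio was lower in the high library of 6 of 6 animals. The latter had to hold, since within WT Trem2 was higher and Cd33 lower in 6 of 6. Trem2 alone also separated WT low (at most 2181 CPM) from GrnKO low and GrnKO high (at least 2579.5 and 3626 CPM). The ratio is therefore no separate evidence, and it was not tested. Among deviations from the group means over 24 libraries, the pairs of the 10 genes had Pearson correlations from -0.60 (Plcg2 and Lilrb4b) to 0.74 (Lilrb4a and Lilrb4b, which may share reads), values that describe libraries sharing animals, depth and cell makeup.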
